A study of Rattus norvegicus with 6 samples.

Results

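The immediate early genes are switched on within minutes of a stimulus without the need for new protein, and 10 of them were chosen here by name (Fos, Fosb, Jun, Junb, Egr1, Ier2, Atf3, Nr4a1, Dusp1 and Btg2). Of these, 9 were among the 15388 genes counted, and Ier2 was not analysed here. Whole thyroids had been taken from adult Sprague-Dawley rats, either non-pregnant (NP) or on day 18 of pregnancy (LP), counted from the day of the vaginal plug, and snap-frozen. No genetic alteration or treatment was applied to either group. Polyadenylated RNA was sequenced in 3 NP and 3 LP libraries, numbered as replicates in the labels, and reads were counted per gene. The comparison asks whether the genes that report acute stimulation, or handling of the tissue, differed between the groups. The hour of collection and the delay before freezing were not given in the sources used here, so any difference in them cannot be told apart from pregnancy.

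As background, a growth factor, a hormone acting through cyclic AMP, a stretch of the tissue or a wound activates kinases such as ERK, p38 and protein kinase A. These phosphorylate factors already bound to the promoters of immediate early genes, such as SRF with its ELK partners and CREB. Fos, Fosb, Jun, Junb and Atf3 encode leucine zipper proteins that pair into the transcription factor AP-1 or with its members. Egr1 encodes a zinc finger factor and Nr4a1 an orphan nuclear receptor. Dusp1 encodes a phosphatase that inactivates the stress kinases p38 and JNK, and Btg2 encodes an antiproliferative protein. In thyroid follicular cells, thyrotropin raises cyclic AMP and can induce several of these genes. They also respond within minutes to dissection, and their mRNAs are short-lived.

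The promoters of 7 of the 10 genes were found in the RefSeq table of the rat assembly GRCr8, a later build than the rn5 assembly on which the reads were counted. No entry was found under the symbols Fos, Jun and Atf3, so the promoter counts leave these genes out. The 250 bases before the start of Dusp1, Btg2, Nr4a1 and Junb are shown because the first 3 of these genes were higher in LP, and Junb as an example of a gene that did not pass the test. Capitals mark every match to the cyclic AMP response element (CRE) TGACGTCA, its core TGACGT, the related heptamer TGCGTCA and the TATA box TATAAA. The TATA box was searched only on the strand shown, and the other motifs on both strands.
Dusp1 (chr10:17184603-17184852, plus strand): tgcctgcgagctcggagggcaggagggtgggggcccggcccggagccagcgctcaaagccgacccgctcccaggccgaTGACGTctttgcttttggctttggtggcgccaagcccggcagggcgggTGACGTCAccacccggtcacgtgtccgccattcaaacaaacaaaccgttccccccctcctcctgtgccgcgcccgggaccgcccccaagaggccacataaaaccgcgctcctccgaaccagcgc
Btg2 (chr13:48087691-48087940, minus strand): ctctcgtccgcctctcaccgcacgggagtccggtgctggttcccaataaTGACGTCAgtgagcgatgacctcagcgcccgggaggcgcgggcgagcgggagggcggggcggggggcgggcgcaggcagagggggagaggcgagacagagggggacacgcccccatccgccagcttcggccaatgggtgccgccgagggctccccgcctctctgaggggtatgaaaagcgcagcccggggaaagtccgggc
Nr4a1 (chr7:134259888-134260137, plus strand): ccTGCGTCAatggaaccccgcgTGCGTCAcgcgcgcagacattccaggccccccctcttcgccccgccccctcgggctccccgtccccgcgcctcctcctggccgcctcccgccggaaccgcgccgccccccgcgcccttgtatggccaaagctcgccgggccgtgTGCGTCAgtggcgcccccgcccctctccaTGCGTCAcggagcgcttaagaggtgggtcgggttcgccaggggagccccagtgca
Junb (chr19:40080876-40081125, plus strand): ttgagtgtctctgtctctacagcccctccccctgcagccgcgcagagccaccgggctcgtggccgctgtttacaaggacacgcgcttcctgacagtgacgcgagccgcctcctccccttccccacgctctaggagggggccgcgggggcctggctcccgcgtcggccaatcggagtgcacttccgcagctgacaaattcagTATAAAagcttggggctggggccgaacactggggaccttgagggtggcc

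The full CRE, which contains the core on both strands, stood 124 bases before the start of Dusp1, 201 bases before that of Btg2 and 66 bases before that of Ier2. It was thus found in 3 of the 7 promoters, against 1.59% of the 33469 rat promoters in the table. The core CRE was found in 4 of the 7, against 6.95%, and the fourth was Egr1, which did not pass the test, with cores 136 and 67 bases before its start. The core was thus present before genes that were called and a gene that was not. Dusp1 had a further core CRE 172 bases before its start. Nr4a1 had neither form of the CRE but held TGCGTCA at 248, 228, 84 and 55 bases before its start, a heptamer found in 1.66% of all promoters and searched for only after this sequence had been read. The CArG box bound by SRF was found in 1 of the 7 promoters, that of Egr1, against 1.5% of all. The AP-1 site TGACTCA was found in none of the 7, against 4.05% of all. Junb had none of these but held a TATA box 49 bases before its start, a motif found in 8.06% of all promoters. Fosb held none of the motifs searched. These matches describe the letters of the window and were not tested for use in the thyroid.

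The libraries held between 2752144 and 3449857 counted reads, so that 3 reads of a gene lay between 0.87 and 1.09 counts per 1000000 reads (CPM), and the precision of the scarcer genes was limited by counting error. Replicates 2 and 3 of each group could not be distinguished beyond sampling noise (chi-square per degree of freedom 1.02 in NP and 0.995 in LP, with 1 the value for repeated draws from the same library), whereas replicate 1 differed from them with values between 3.7 and 4.11. The mean of replicates 2 and 3 was used as 1 replicate, so each mean ± SD rests on n = 2 a group. The main test, by contrast, took all 6 libraries as separate samples, so its p-values may be too small. P-values from either form measure only the spread between these libraries, which may be technical. Thyroglobulin, the defining transcript of thyroid follicles, took between 22.9% and 24.5% of all reads in each library. Of 9 follicular cell markers 2 were called higher in LP, Nkx2-1 (log2 fold change 0.28) and Duox2 (0.29), and 2 lower, Tshr (-0.68) and Slc5a5 (-0.94). The LP libraries also held skeletal muscle RNA. The 11 muscle markers measured summed to between 31.2 and 80.7 CPM in NP and between 5260 and 5580 CPM in LP, 9 of the 10 tested rose, and Myh1 and Mylpf were at 0 in every NP library. Reads on mitochondrial genes made up between 4.32% and 4.4% of NP and between 6.14% and 6.28% of LP libraries, and erythrocyte markers summed to between 219 and 242 CPM in NP and between 201 and 211 CPM in LP. Airway markers summed to between 2.51 and 6.59 CPM in NP and between 22 and 22.4 CPM in LP, and 3 of 3 tested rose. Nerve markers summed to between 39.4 and 47.7 CPM in NP and between 73.2 and 82.7 CPM in LP, and 2 of 4 tested rose. Of 7 endothelial markers, 4 fell and none rose, with sums of 571 to 589 CPM in NP and 480 to 511 CPM in LP. Over all tested genes 15.3% were called higher and 11.7% lower, and the follicular and nerve counts rest on few markers. The part of these differences in RNA content in the results on the immediate early genes was not tested. Fewer cells of a type and less RNA per cell cannot be told apart in these whole glands.

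Jun, Nr4a1, Dusp1 and Btg2 were higher in late pregnancy, with fold changes of 1.36 to 2.28, whereas Fos, Junb and Egr1, which respond to the same kinds of stimulus, did not pass the test. The test was edgeR's quasi-likelihood test across all 6 libraries, adjusted by the Benjamini-Hochberg method over 11738 genes, and a gene was called changed at an adjusted p-value below 0.05. Of the 8 immediate early genes tested, 5 were called higher in LP and 0 lower, against 15.3% of all tested genes called higher and 11.7% called lower. Among the called genes, Atf3 passed the filter on low counts through its LP libraries alone, and without it 4 of 7 were called higher. Over all genes, 1794 were called higher and 1374 lower, and 1461 and 2146 when libraries were scaled by their totals alone. The 3 genes that were not called had log2 fold changes between 0.21 and 0.23, and differences between genes in their fold change were not tested. With DESeq2 in place of edgeR, 4 were called higher and 0 lower, against 10.4% and 5.99% of all genes. At an unadjusted p-value below 0.05 edgeR gave 6 and 0, against 19.5% and 17.3%. With replicates 2 and 3 of each group summed, 4 of 9 were called higher, against 12.3% of all genes, the difference being Atf3. In that edgeR fit the adjusted p-values were 3.32e-06 for Jun, 5.56e-06 for Nr4a1, 2.53e-06 for Dusp1 and 0.00102 for Btg2. All LP libraries lay above all NP libraries for 5 of the 8, and for 4 of 7 without Atf3, against 21.2% of all tested genes. Only Nr4a1 exceeded a 2-fold change with an adjusted p-value below 0.05, which 4.9% of all tested genes did in the same direction. The median log2 fold change was 0.69 over the 8 and 0.44 over the 7 without Atf3, beside -0.01 for all tested genes.

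**Figure D1:**
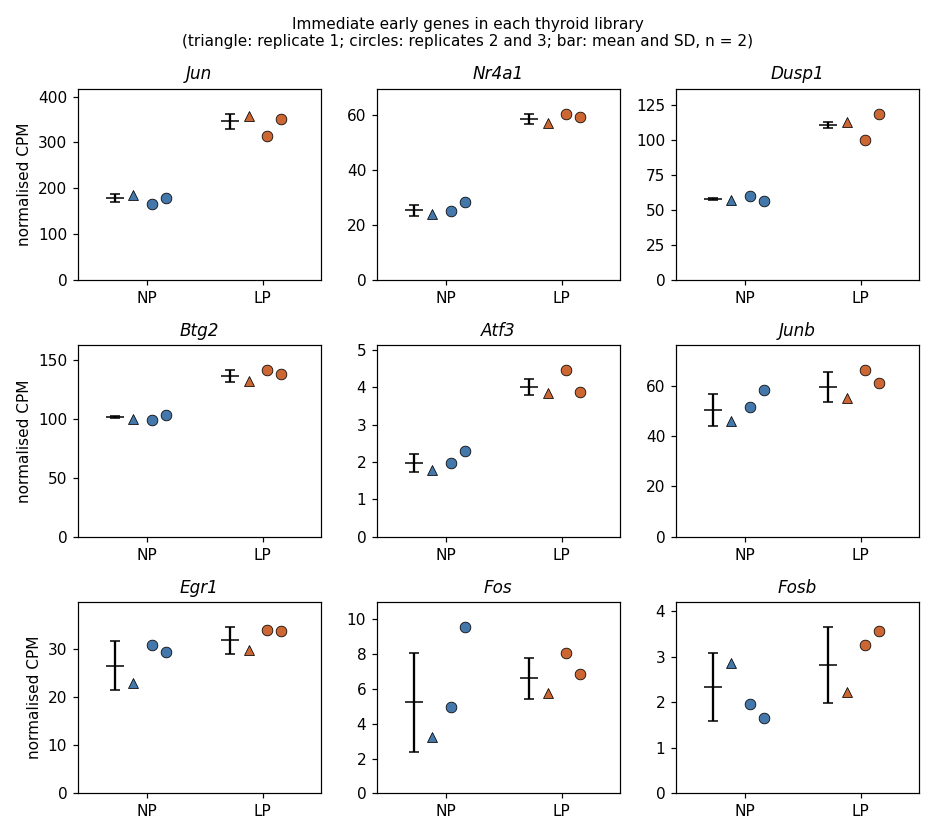
Level of each measured immediate early gene in each library, in normalised CPM (vertical axes, each from 0), for NP and LP. Triangles are replicate 1, circles are replicates 2 and 3, and the bar gives the mean and SD of 2 samples per group. The groups are apart for Jun, Nr4a1, Dusp1, Btg2 and Atf3 and overlap for Junb, Egr1, Fos and Fosb.

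Among the AP-1 genes, Jun, the partner that most AP-1 dimers contain, had the clearest change. Jun (ENSRNOT00000011731) had 518, 506 and 540 reads in the NP libraries and 1116, 1060 and 1183 reads in LP. All 3 LP libraries lay above all 3 NP libraries, on read counts as well as after scaling. The normalised level was 179 ± 9.63 CPM (SD, n = 2) in NP and 346 ± 16.9 CPM in LP. The fold change was 1.94 (95% interval 1.76 to 2.13, log2 standard error 0.064, adjusted p = 3.1e-09 from edgeR), and 614 of the 11738 tested genes had a larger log2 fold change. Jun alone made up between 37.7% and 41.8% of the reads on the 9 genes in NP and between 43.1% and 47.3% in LP.

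Junb, a close relative of Jun and itself induced by cyclic AMP and cytokines, had 128, 156 and 177 reads in the NP libraries and 172, 222 and 205 in LP. After scaling the groups overlapped, with 45.9, 51.3 and 58.3 CPM in NP and 55.1, 66.1 and 61.1 CPM in LP. The fold change was 1.17 (95% interval 1.02 to 1.35, adjusted p = 0.0927 from edgeR). The adjusted p-value was 0.0386 with the replicate number as a block and 0.0355 without NP replicate 3. With replicates 2 and 3 summed it was 0.165, and 0.0541 with the block as well. The ratio of Jun to Junb reads within a library, which needs no scaling between libraries, lay between 3.05 and 4.05 in NP and between 4.77 and 6.49 in LP. This pair was picked after the values were seen, so the ratio is given as a description. Jund, the relative of Jun that is made constantly in most tissues, did not pass the test either, with 1026, 1090 and 1119 reads in the NP libraries and 1205, 1272 and 1219 in LP (log2 fold change 0.04, adjusted p = 0.593 from edgeR). Its log2 fold change was -0.03 when libraries were scaled by their totals alone.

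Fos, the classical partner of Jun, had few reads, with 9, 15 and 29 reads in the NP libraries and 18, 27 and 23 in LP. The highest library of the 6, by reads and by CPM, was an NP library, and the groups overlapped. The normalised level was 5.24 ± 2.84 CPM (SD, n = 2) in NP and 6.61 ± 1.18 CPM in LP. The fold change was 1.16 with a 95% interval of 0.721 to 1.86 (adjusted p = 0.692 from edgeR), and the interval with replicates 2 and 3 summed, 0.697 to 1.97, reached past the size of the change in Jun. Its log2 fold change was 0.74 without NP replicate 3 and -0.07 without NP replicate 1. Fosb had 8, 6 and 5 reads in the NP libraries and 7, 11 and 12 in LP, below the filter on low counts. Without the filter its fold change was 1.41 (95% interval 0.782 to 2.54, adjusted p = 0.459 from edgeR). Differences of these genes below the width of these intervals were not detectable at this depth. Of the other Fos genes, Fosl2 had 14, 22 and 25 reads in NP against 22, 37 and 30 in LP (adjusted p = 0.285 from edgeR), and Fosl1 had between 3 and 8 reads in every library.

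Atf3, a stress-induced leucine zipper factor that can act as a repressor, had 5, 6 and 7 reads in the NP libraries and 12, 15 and 13 in LP. The groups did not overlap, but the counts were small. Atf3 reached the filter, 3.23 CPM in 3 libraries, through its LP libraries alone, so that a gene kept in this way had to be higher in LP. The fold change was 1.98 (95% interval 1.2 to 3.29, adjusted p = 0.0432 from edgeR). The call was lost in 12 of 14 alternatives, with adjusted p = 0.0589 with the replicate block, 0.096 with replicates 2 and 3 summed, 0.299 with DESeq2 and between 0.078 and 0.126 with any 1 library left out.

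**Figure D2:**
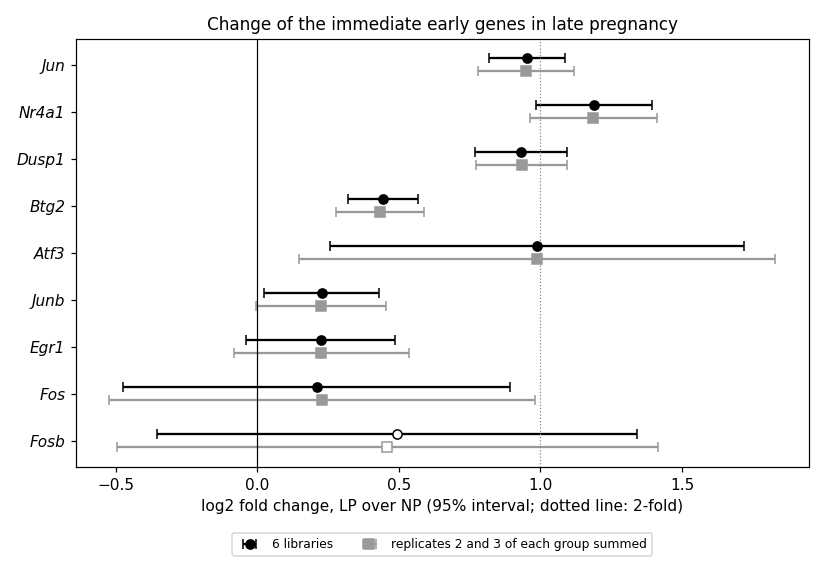
Log2 fold change of each gene, LP over NP (horizontal axis), with its 95% interval, from the 6 libraries (black circles) and with replicates 2 and 3 of each group summed (grey squares). Open symbols mark Fosb, whose 6-library value was fitted without the filter on low counts. The intervals of Jun, Nr4a1, Dusp1, Btg2 and Atf3 lie to the right of 0 in both fits, and those of Egr1, Fos and Fosb include 0. The interval of Junb lies to the right of 0 in the 6-library fit and includes 0 in the summed fit.

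Nr4a1, the orphan nuclear receptor also known as Nur77, had the largest fold change of the 9 genes. It had 67, 76 and 86 reads in the NP libraries and 178, 203 and 199 in LP. The lowest LP library lay above the highest NP library by a wide margin. The level was 25.3 ± 1.86 CPM (SD, n = 2) in NP and 58.5 ± 1.97 CPM in LP, a fold change of 2.28 (95% interval 1.98 to 2.63, log2 standard error 0.097, adjusted p = 4.05e-08 from edgeR). Its relative Nr4a2, which binds the same DNA element, had 97, 101 and 101 reads in the NP libraries and 89, 88 and 95 in LP, so the LP libraries lay below the NP libraries. The log2 fold change of Nr4a2 was -0.29 (adjusted p = 0.0616 from edgeR), with an adjusted p-value of 0.0167 when libraries were scaled by their totals alone. The ratio of Nr4a1 to Nr4a2 reads was between 0.691 and 0.851 in NP and between 2 and 2.31 in LP. This pair was also picked after the values were seen. The last of the family, Nr4a3, was below the filter with between 5 and 13 reads in every library. The TGCGTCA copies shown above lie before the start of Nr4a1.

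Egr1, a zinc finger factor that is among the most sensitive markers of acute stimulation, had 64, 94 and 89 reads in the NP libraries and 93, 114 and 113 in LP. After scaling, LP replicate 1 with 29.8 CPM lay within the NP range of 23 to 30.9 CPM, and the groups overlapped. The fold change was 1.17 (95% interval 0.972 to 1.4, adjusted p = 0.214 from edgeR). This interval did not reach the fold change of Jun, Nr4a1 or Dusp1. The ratio of Nr4a1 to Egr1 reads within a library lay between 0.809 and 1.05 in NP and between 1.76 and 1.91 in LP, a pair again picked after the values were seen. Its relatives Egr2, Egr3 and Egr4 were below the filter. Egr2 had 3, 3 and 0 reads in the NP libraries and 11, 5 and 7 in LP. Without the filter the log2 fold change of Egr2 was 1.73 (adjusted p = 0.0749 from edgeR). Egr3 had between 1 and 5 reads in every library, and Egr4 between 3 and 5.

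Dusp1, whose product switches off the stress kinases that induce many of these genes, had 160, 183 and 171 reads in the NP libraries and 352, 336 and 400 in LP. Again no LP library overlapped with NP. Its level was 57.8 ± 0.619 CPM (SD, n = 2) in NP and 111 ± 2.31 CPM in LP, a fold change of 1.91 (95% interval 1.7 to 2.14, log2 standard error 0.077, adjusted p = 4.96e-08 from edgeR). Dusp1 is also a direct target of the glucocorticoid receptor. For Per1, a clock gene with the same property, the reads went from 599, 626 and 660 in the NP libraries to 572, 572 and 593 in the LP libraries. Per1 fell by 0.27 on the log2 scale (adjusted p = 0.00196 from edgeR). The part of glucocorticoids in the change of Dusp1 or of Per1 was not tested.

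Btg2, which restrains cell division and is also a target of p53, had a smaller difference on more reads. It had 279, 301 and 314 reads in the NP libraries and 413, 474 and 463 in LP, and the groups did not overlap. Its level was 101 ± 0.818 CPM (SD, n = 2) in NP and 136 ± 5.02 CPM in LP, a fold change of 1.36 (95% interval 1.25 to 1.48, log2 standard error 0.058, adjusted p = 1.31e-05 from edgeR). The related genes Tob1 and Tob2, named after their values had been seen, rose as well. Tob1 had 193, 182 and 197 reads in the NP libraries and 301, 295 and 302 in LP (fold change 1.41, adjusted p = 4.8e-05 from edgeR). Tob2 had 240, 227 and 239 reads in the NP libraries and 328, 331 and 365 in LP (fold change 1.31, adjusted p = 0.000437 from edgeR). Btg1 had 156, 160 and 164 reads in the NP libraries and 184, 194 and 218 in LP, a fold change of 1.12 that did not pass the test (adjusted p = 0.169 from edgeR).

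The differences between libraries of the same group were then examined. In 6 of the 9 genes the level in replicate 1 was below that of replicates 2 and 3 in both groups, in 1 it was above in both, and in 2 the signs differed. The share of all genes with this pattern was not counted. Over all tested genes the deviations of NP replicate 1 and LP replicate 1 correlated at 0.5. The log2 ratio of replicate 1 over replicates 2 and 3 was -1.10 in NP and -0.34 in LP for Fos. It was -0.39 and -0.18 for Egr1 and -0.25 and -0.20 for Junb. For Jun it was 0.11 and 0.10. Among the 6, it was small for Nr4a1 (-0.144 in NP and -0.066 in LP) and Btg2 (-0.015 and -0.074). Replicates 2 and 3 of both groups also held more smooth muscle RNA. The summed level of Acta2, Myh11, Tagln and Cnn1 was 241 CPM in NP replicate 1 and 172 CPM in LP replicate 1, against 1500 to 1620 CPM in replicates 2 and 3 of the 2 groups. Its part in the levels of Fos, Egr1 and Junb was not tested. The change from NP to LP was nearly the same within replicate 1 and within replicates 2 and 3 for Jun (log2 0.95 and 0.96), Nr4a1 (1.24 and 1.16), Dusp1 (0.97 and 0.91) and Btg2 (0.40 and 0.46). It was also close for Junb (0.263 and 0.214), which was not called, and for Atf3 (1.023 and 0.933). For Egr1 it was 0.374 and 0.165, for Fos 0.80 and 0.04, and for Fosb -0.34 and 0.89. Skeletal muscle RNA was of like amount in the 3 LP libraries, so these values do not bear on it.

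**Figure D3:**
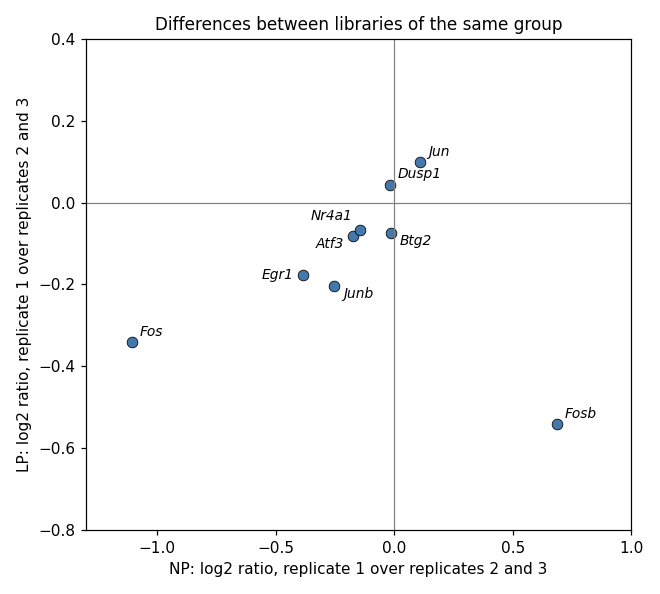
Log2 ratio of the level in replicate 1 over that in replicates 2 and 3, in NP (horizontal axis) and in LP (vertical axis), with 1 point for each of the 9 genes. Jun, Dusp1 and Btg2 lie near 0 in both groups, Fos, Egr1 and Junb are lower in replicate 1 of both, and the scarce Fosb has opposite signs.

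To see whether the wider programme moved with these genes, lists of related genes were counted in the same test, with 15.3% of all tested genes called higher and 11.7% called lower as the background. Of 22 further transcription factors induced by the same stimuli, 17 were tested, of which 4 were called higher and 1 lower, with a median log2 fold change of 0.05. The 3 with the smallest adjusted p-values included Per1, described above. Klf2, a factor of blood vessel lining that responds to flow, had 444, 479 and 495 reads in the NP libraries and 604, 632 and 643 in LP (fold change 1.19, adjusted p = 0.00185 from edgeR). Cebpb, a leucine zipper factor of inflammation and fat cells, had 75, 172 and 142 reads in the NP libraries and 196, 271 and 256 in LP (fold change 1.68, adjusted p = 0.00188 from edgeR, 0.0898 with DESeq2). NP replicate 1 was the low library for Cebpb. Myc and Klf6, named after their values were seen, were the other 2 called higher, with fold changes of 1.29 and 1.39, and Klf6 was not called with DESeq2 (adjusted p = 0.113).

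Of 38 further effector genes of the same response, 31 were tested, 10 were called higher and 2 lower, and the median log2 fold change was 0.11. Rhob, a small GTPase of the cytoskeleton, had 1146, 1292 and 1285 reads in the NP libraries and 1795, 1869 and 1908 in LP (fold change 1.35, adjusted p = 1.28e-06 from edgeR). Ctgf, a matrix protein induced by stretch and by YAP, had 642, 646 and 649 reads in the NP libraries and 975, 1119 and 1010 in LP (fold change 1.44, adjusted p = 2.13e-06 from edgeR). Zfp36l1, a protein that promotes decay of AU-rich mRNAs, had 919, 972 and 995 reads in the NP libraries and 1328, 1410 and 1432 in LP (fold change 1.3, adjusted p = 1.1e-05 from edgeR). Every LP library lay above every NP library for all 3 of these genes, which had been named for their small adjusted p-values. The same held for 12 of the 31 tested genes of the list and for 21.2% of all tested genes. The 2 called lower, named after their values were seen, were Sgk1, a kinase induced by steroid hormones (fold change 0.643, adjusted p = 8.58e-05 from edgeR), and Nfkbia, the inhibitor of NF-kappaB (fold change 0.856, adjusted p = 0.00719 from edgeR, 0.0629 with DESeq2).

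Of 11 genes that ERK signalling induces as feedback or output, such as the Sprouty, Spred and Etv genes, all were tested and 0 were called by edgeR or by DESeq2. The median log2 fold change was -0.11, and at an unadjusted p-value below 0.05 edgeR gave 1 higher, Dusp6, and 0 lower. Dusp6, the phosphatase specific to ERK, had 61, 47 and 60 reads in the NP libraries and 57, 94 and 91 in LP (adjusted p = 0.129 from edgeR, 0.0306 with the replicate block, 0.0827 with the block and replicates 2 and 3 summed, 0.0167 without LP replicate 1), and the groups overlapped. Of 37 upstream kinases and transcription factors, 33 were tested, with 8 called higher and 1 lower and a median log2 fold change of 0.14. The count called higher was 5 of 34 with replicates 2 and 3 summed, against 12.3% of all genes, and 3 of 33 with DESeq2, against 10.4%. Elk1, a partner of SRF, had 70, 91 and 73 reads in the NP libraries and 119, 128 and 141 in LP (fold change 1.49, adjusted p = 0.000882 from edgeR). Rps6ka2, a kinase activated by ERK, had 179, 173 and 207 reads in the NP libraries and 296, 290 and 272 in LP (fold change 1.38, adjusted p = 0.000299 from edgeR). Crem, a relative of CREB that is itself induced by cyclic AMP, had 190, 218 and 198 reads in the NP libraries and 170, 165 and 172 in LP, and fell by 0.41 on the log2 scale (adjusted p = 0.000677 from edgeR).

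Heat shock genes, which also rise when tissue is stressed, moved in both directions. The list was mostly of cytosolic chaperones and their regulators but also held Hspd1 and Hspe1 of the mitochondria. Of 22 listed, 18 were among the genes counted, and Hspa1a, Hspa8, Hsp90aa1 and Hspe1 were not. Of the 18, 16 were tested, 4 were called higher and 4 lower, and the median log2 fold change was -0.09. Hsph1, a co-chaperone of HSP70, had 560, 568 and 611 reads in the NP libraries and 269, 262 and 287 in LP, a fall of the level to 0.424 of that in NP (adjusted p = 3.64e-11 from edgeR). Bag3 had 84, 126 and 136 reads in the NP libraries and 293, 325 and 336 in LP (fold change 2.48, adjusted p = 1.24e-08 from edgeR). Its partner Hspb8 had 38, 88 and 70 reads in the NP libraries and 188, 214 and 225 in LP (fold change 2.88, adjusted p = 4.64e-07 from edgeR). Bag3 and Hspb8 are abundant in skeletal muscle, whose markers were higher in the same LP libraries. The part of muscle RNA in their change was not tested. The other genes called were Hspb1 and Hsf1, higher with fold changes of 1.23 and 1.21, and Dnaja1, Hsp90ab1 and Stip1, lower with fold changes of 0.714, 0.838 and 0.863. These 5 were named after their values were seen. Hsf1 was not called with DESeq2 (adjusted p = 0.158), with library totals (0.0651) or without NP replicate 2, NP replicate 3 or LP replicate 3, and Stip1 was not called with DESeq2 (adjusted p = 0.111), with replicates 2 and 3 summed (0.0731) or without LP replicate 2. The heat-inducible Hspa1b was below the filter, with between 2 and 7 reads in every library. Its reads may be shared with the near-identical Hspa1a, so its level is uncertain. Hspa1l, named after its values were seen, was below the filter too. Reads on Hspa1l rose from 2, 1 and 2 across the NP replicates to 7, 12 and 23 across those of LP. Fitted with no gene filtered out, Hspa1l had a log2 fold change of 2.83 (adjusted p = 0.00129 from edgeR), on few reads. That unfiltered fit called 5 of 18 heat shock genes higher and 4 lower.

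**Figure D4:**
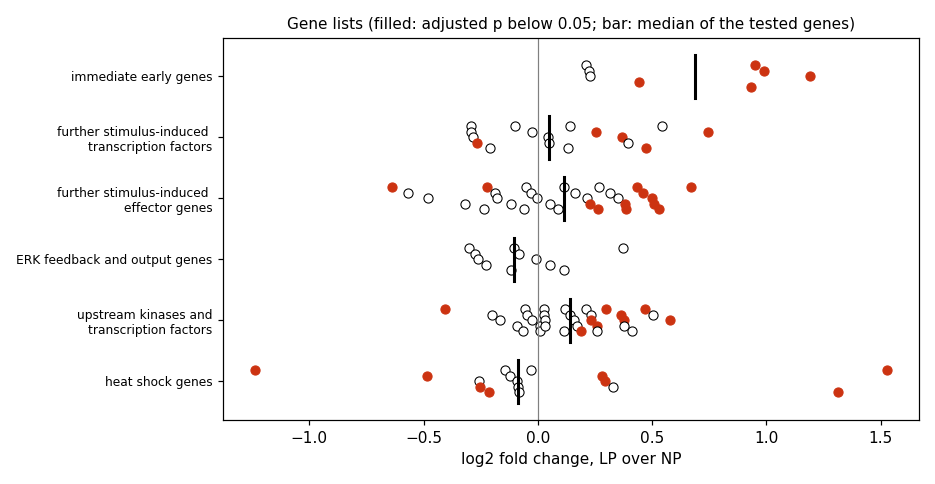
Log2 fold change, LP over NP (horizontal axis), of each tested gene of the 6 lists (rows), with filled points for genes called at an adjusted p-value below 0.05 and a bar at the median of the tested genes. The immediate early genes lie between 0.21 and 1.19, while the other lists spread to both sides of 0.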

How the data were processed

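Thyroid RNA in 3 NP and 3 LP libraries was analysed. The paper lists thyroids from 3 rats in each of these groups. The labels do not say whether each library came from a separate rat. The authors mapped reads to rn5 with Tophat (version 1.4.0 in the submitters' processing notes), counted them with HTSeq-count on ENSEMBL gene models, and deposited raw counts of reads per gene, without normalization. Strand and the treatment of shared reads are not given in the sources used here.

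All genes past the filter, 11738 of 15388, were fitted in R 4.3.3 with edgeR 4.0.16 (TMM, the default filter on low counts, glmQLFit and glmQLFTest, no block, Benjamini-Hochberg adjustment), with DESeq2 1.42.0 as an alternative. Standard errors are the absolute log2 fold change over the square root of F, and intervals use the degrees of freedom of the model. CPM values were scaled by TMM. The test was checked on simulated data. The alternatives also covered the filter, the scaling, each library left out, the replicate block, replicates 2 and 3 summed, and the study's 2-fold criterion. Deviations of same-numbered NP and LP libraries correlated at 0.5, 0.227 and 0.197, so the replicate numbers of the labels were taken as pairs in the block, although replicates 2 and 3 of unlike number correlated at 0.221. The block changed the calls of Junb, Atf3 and Dusp6 among the genes described.

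The 10 genes, the lists and the tests were chosen with earlier results of these data known. Every one of the 10 is described, and from each other list the 3 called genes with the smallest adjusted p-values. Relatives of the 10 genes were added after their values were seen. Promoters of GRCr8 came from RefSeq and were searched over 250 bases.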

Additional observations from a re-analysis of the deposited data

How the results depend on the processing

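The calls of Jun, Nr4a1, Dusp1 and Btg2 held in each of 15 alternatives, with log2 fold changes of 0.88 to 1.01, 1.12 to 1.26, 0.86 to 1.00 and 0.37 to 0.46. Between 4 and 5 of the immediate early genes were called higher in these alternatives, and a 2-fold criterion left 1. For the further transcription factors the count called higher was 2 with DESeq2 and 0 with the 2-fold criterion, and the count called lower was 2 with the replicate block, 3 with library totals and 0 with the criterion. For the further effector genes the criterion left 0 higher and 0 lower, and DESeq2 called 1 lower. For the ERK genes 1 was called higher with the replicate block, 0 with the block and replicates 2 and 3 summed, and between 0 and 1 with a library left out (1 without LP replicate 1). For the upstream genes the count called higher was 5 with replicates 2 and 3 summed, 4 with library totals, 3 with DESeq2, 0 with the criterion and between 5 and 7 with a library left out (5 without LP replicate 2 or LP replicate 3), and the count called lower was 2 with library totals and 0 with the criterion. For the heat shock genes the criterion left 2 higher and 1 lower. Apart from the criterion, which asks for a larger change, the causes were not tested.

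Among the immediate early genes and their relatives named here, the sign changed for Fos, Jund and Fosb, none of them called. Fos gave between -0.068 (without NP replicate 1) and 0.736 (without NP replicate 3) with a library left out, Jund gave -0.029 with library totals, and Fosb gave -0.34 in replicate 1 alone, a setting added after the data were seen. With library totals in place of TMM, 1461 genes were called higher and 2146 lower, against 1794 and 1374, and the median of all genes moved from -0.01 to -0.08. A minimum mean of 50 reads left Fos, Fosb and Atf3 untested. Fosb and Atf3 had at most 15 reads in every library, so depth limits what they can show.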
